A study of Mus musculus with 2 samples.

Results

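The cells described here are fibroblasts of the mouse colon that carry transcripts of Adamdec1, Sfrp1, Wnt4 and Tcf21, the profile of fibroblasts in the lamina propria, the connective tissue under the gut epithelium. They were found in 2 single-cell RNA libraries of wild-type C57BL/6 mice, 1 from the group given THC (tetrahydrocannabinol, the main psychoactive compound of cannabis) at 10 mg/kg and 1 from the vehicle control group. The cells were chosen by their measured counts. A barcode was taken when it held at least 1000 UMIs (unique molecular identifiers, each counting 1 captured RNA molecule) and 200 genes, under 10% of its UMIs from mitochondrial genes, at least 10 UMIs of Col1a1, Col1a2, Col3a1 and Dcn together, at most 1 UMI of Epcam, Ptprc and Pecam1 together and fewer than 5 of Actg2, Des and Myh11 together. It also had to hold at least 2 UMIs of Adamdec1, Sfrp1, Wnt4 and Tcf21 together, and at least as many of these as of Pi16, Col14a1, Pcolce2 and Scara5, which mark adventitial fibroblasts. This gave 172 cells of the 1026 that passed the quality limits, 63 of 396 in the THC library and 109 of 630 in the vehicle library. Colons were stripped of epithelium with EDTA, digested with collagenase D, DNAse and Dispase and enriched over a Percoll gradient, so the cells are those that survived this route. No source used here states age, sex, time after dosing or how many animals each library drew on.

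Fibroblasts of the lamina propria build the collagen scaffold around the crypts and form part of the niche of the intestinal stem cells. Those near the crypt base are known for Wnt ligands, R-spondins and BMP antagonists, which keep stem cells dividing. Those under the surface epithelium, often called subepithelial telocytes, are rich in Pdgfra, F3 and BMP ligands, which promote differentiation. Gut fibroblasts also recruit leukocytes through chemokines. THC acts mainly through the cannabinoid receptors encoded by Cnr1 and Cnr2, and the comparison of the libraries asks what the colon cells look like after THC.

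With 1 library per group no test between THC and vehicle was possible, and the 95% intervals below cover counting error only, not differences between animals. Where a pair of values is given, the THC library comes before the vehicle library. The THC matrix held 737280 barcodes, of which 106628 had a UMI, whereas the vehicle matrix held 973 barcodes with at least 502 UMIs each, so the same quality limits were applied to both. The fibroblasts had a median of 8180 UMIs and 2678 genes per cell in the THC library and 7101 UMIs and 2429 genes in the vehicle library, with 2.48% and 2.59% of UMIs from mitochondrial genes. Their UMIs summed to 501728 and 811827. The libraries shared 168 barcodes with any UMI but none among the cells that passed the quality limits. The doublet caller marked 1 THC and 2 vehicle cells of those that passed, none of them among the fibroblasts described here.

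Lamina propria fibroblasts made up 15.9% (exact binomial 95% interval 12.4 to 19.9) of the cells that passed in the THC library and 17.3% (14.4 to 20.5) in the vehicle library. Of the cells passing the collagen gate they made up 70.8% (60.2 to 79.9) of 89 and 70.3% (62.5 to 77.4) of 155. The intervals overlap for both measures. Digestion and the gradient can set these shares as well as the tissue.

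The sum of Adamdec1, Sfrp1, Wnt4 and Tcf21 had a median of 50 UMIs per chosen cell in the THC library and 54 in the vehicle library, and reached 366 and 334. Just inside the limit, 2 THC cells held a sum of 2 and none held 3, while the lowest vehicle cell held 4. Just outside it, 8 THC and 13 vehicle collagen-gated cells had a sum of 1, and 7 and 21 reached 2 but held more UMIs of the adventitial genes. Adamdec1, a secreted metalloprotease-like protein, was found in 84.1% of the chosen cells in THC and 89.0% in vehicle. Among epithelial cells, which should lack it and were deeper with medians of 18062.5 and 13862 UMIs, Adamdec1 was found in 0 of 118 THC cells, which allows a share of up to 2.54%, and in 2.3% of vehicle cells. Among immune cells, with medians of 3723 and 3692 UMIs, it was found in 10.9% and 4.0%.

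The label was compared with Igfbp3, an IGF-binding protein that the choice of cells did not use. Igfbp3 was named as a marker with earlier results of these data known, so it is no independent check. It stood at 2077 CPM (UMIs of the gene per 1000000 UMIs) in THC and 2029 in vehicle lamina propria fibroblasts, against 13.3 and 62.3 in the adventitial-side fibroblasts of the same gate. Each of 8 general fibroblast genes outside the choice passed 50 UMIs, among them Pdgfra in 82.5% of THC and 79.8% of vehicle cells. Genes of adventitial fibroblasts outside the choice were present too. These 10 genes took 0.578% of UMIs in each library, against 1.02% and 1.36% in the adventitial-side fibroblasts. Among them Clec3b was found in 55 THC and 92 vehicle cells, and Dpp4 in 1 and 3. Several defining markers of other lineages were at or near 0. Cdh5 and Emcn of endothelium, Lyz2 and C1qb of macrophages, Cd79a of B cells and Sox10 of glia had 0 UMIs, and Cd3e of T cells had 1. Other markers were present. Kit and Ano1 of interstitial cells of Cajal had 60 and 94 UMIs together, with 0 in 57 THC and 101 vehicle cells. Mesothelial genes had 54 and 134 UMIs, epithelial genes 38 and 105, and endothelial genes 20 and 49. Over their whole lists, macrophage and dendritic genes had 20 and 31 UMIs and goblet genes 11 and 32. T and innate lymphoid genes had 0 and 8, B and plasma genes 3 and 2, and enteric glia genes 0 and 4. The smooth muscle and pericyte genes held more and differed between the libraries, at 0.179% of UMIs in THC and 0.0945% in vehicle cells. Of these 9 genes, 5 were measured, all above 0 on the log2 scale, and Acta2 (295 and 235 UMIs) and Tagln (273 and 157) led them. Their part in the differences described below was not tested.

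**Figure D1:**
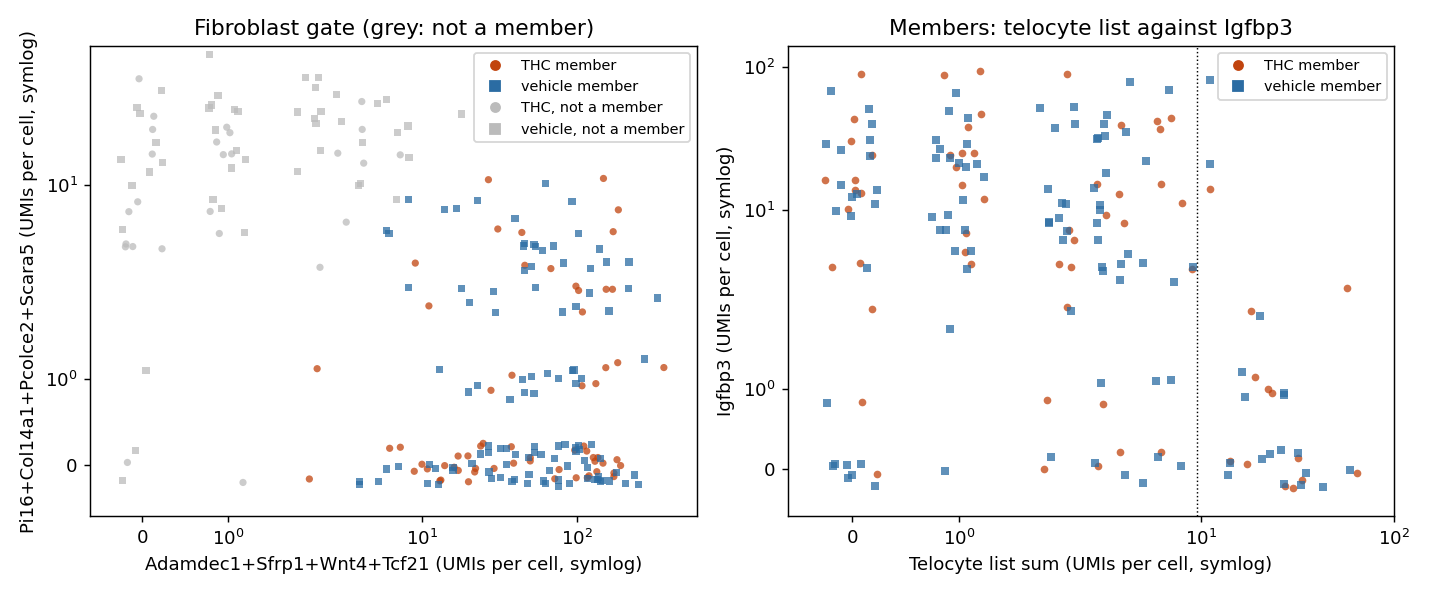
Left: each point is a collagen-gated fibroblast, with the UMIs of Adamdec1, Sfrp1, Wnt4 and Tcf21 on the x axis and of the adventitial genes Pi16, Col14a1, Pcolce2 and Scara5 on the y axis (both symmetric log scales, points jittered); coloured points are the 63 THC and 109 vehicle lamina propria fibroblasts and grey points the other gated cells. Right: the same lamina propria fibroblasts, with the UMIs of 10 telocyte genes on the x axis and of Igfbp3 on the y axis; to the right of the dotted line lie the 13 THC and 18 vehicle cells with 10 or more telocyte UMIs, most with little Igfbp3.

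Of the niche signals, BMP ligands and Wnt4 were well detected in these cells, while R-spondins and Grem1 had few UMIs. Bmp4, a ligand that limits crypt stem cells, stood at 749 CPM in THC and 637 in vehicle lamina propria fibroblasts, against 79.7 and 104 in the adventitial-side cells. Wnt4 stood at 223 and 253 CPM against 6.6 and 0 (Wnt4 was used to choose the cells). Bmp5, another BMP ligand, was found in 65.1% and 55.0% of cells, at 121 and 156 UMIs, and at 0 UMIs in the adventitial-side cells of either library. Against the floor of 3 counts per library this is at least 12.1-fold higher in the THC and 21.6-fold higher in the vehicle library. Of the R-spondins, which amplify Wnt signals, none reached 50 UMIs: Rspo1 had 12 and 16 UMIs, Rspo2 0 and 1, and Rspo3 2 and 17. Grem1, a BMP antagonist of the crypt base, had 32 and 17. Other BMP antagonists were better detected: the list of 9 held 379 and 557 UMIs. Nbl1, an antagonist outside that list, stood at 1343 and 808 CPM.

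Chemokines also separated these cells from the adventitial side. Cxcl12, which retains lymphocytes and plasma cells, stood at 2621 CPM in THC and 2289 in vehicle lamina propria fibroblasts, against 259 and 350 in the adventitial-side cells. Cxcl14 stood at 516 and 604 CPM against 6.6 and 14.8. The monocyte attractant Ccl2 ran the other way, at 353 and 564 CPM against 2337 and 4997, and so did its neighbour in function Ccl7, at 21.9 and 83.8 against 976 and 2464. Ccl11, the eosinophil attractant eotaxin, was high on both sides, at 975 and 1026 CPM against 1361 and 1903. Il33, an alarmin of stromal cells, was low here at 10.0 and 39.4 CPM against 173 and 282.

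Ranked by the smaller ratio of the libraries over the adventitial side, genes at 0 UMIs in the adventitial-side cells of both come first. There were 33 such genes, and the 10 with the most UMIs were Agt, Bmp5, Dll1, Ednrb, Emid1, Fblim1, Il1rl1, Nrg1, Sema3f and Syt13. Their excess is known only as a lower bound, so they need not be the genes that differ most. Emid1, a matrix protein with an EMI domain, had 133 and 208 UMIs, at least 13.3-fold and 28.8-fold higher. Agt, the precursor of angiotensin, had 118 and 149 UMIs, at least 11.8-fold and 20.6-fold higher. Dll1, a Notch ligand, had 48 and 67 UMIs, at least 4.80-fold and 9.27-fold higher. Il1rl1, the receptor of Il33, had 6 and 99 UMIs, so a bound above 1 exists for the vehicle library alone, at 13.7-fold. Of those 99 UMIs, 60.6% came from 1 cell. The 10 most depleted genes were Ccl7, Cmah, Ebf1, Has1, Ifi204, Ifi205, Ifi207, Ptx3, Sfrp4 and Tek. Ebf1, a transcription factor of perivascular and adventitial stroma, was 31.8-fold and 21.9-fold lower than on the adventitial side. Ptx3, a secreted pattern-recognition protein, had 0 UMIs in both libraries here and 35 and 130 in the adventitial-side cells, at least 38.9-fold and 104-fold lower. These contrasts follow in part from how the cells were chosen and are given without a test.

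**Figure D2:**
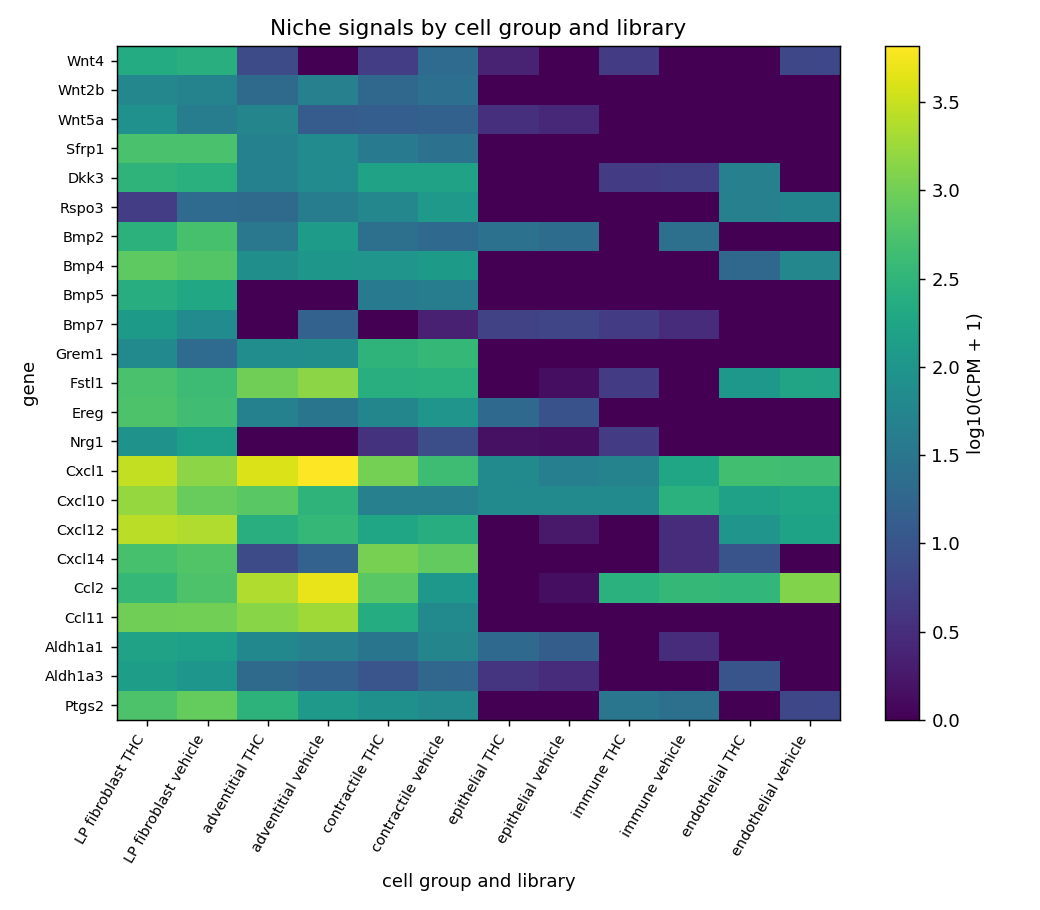
Heat map of log10(CPM + 1) for 23 ligands, inhibitors, chemokines and enzymes (rows) in 6 cell groups of each library (columns; LP fibroblast stands for the lamina propria fibroblasts). Bmp4, Bmp5, Wnt4, Cxcl12 and Nrg1 are brighter in the lamina propria fibroblasts of both libraries than in the adventitial-side columns, and Ccl2 is darker.

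The lamina propria fibroblasts were not uniform. 10 genes known from subepithelial telocytes (F3, Sox6, Foxl1, Bmp3, Bmp5, Bmp7, Wnt5a, Nrg1, Ednrb and Hhip) were summed per cell, and 28 of 63 THC cells (44.4%) and 49 of 109 vehicle cells (45.0%) held at least 3 UMIs of them. A smaller group of 13 THC cells (20.6%, interval 11.5 to 32.7) and 18 vehicle cells (16.5%, 10.1 to 24.8) held 10 or more. This higher limit was chosen after the values were seen, so what follows is a description. All 13 and all 18 held Adamdec1. Sfrp1, used in choosing the cells, stood at 65.6 and 20.4 CPM in them, against 663 and 645 in the other lamina propria fibroblasts, and Igfbp3 at 181 and 735 against 2685 and 2315. Of the 108 Igfbp3 UMIs in the vehicle telocyte-rich cells, 81 and 21 came from 2 cells with 11 telocyte UMIs, just past the limit, and 14 of the 22 in THC came from 1 cell with 11. No other telocyte-rich cell held more than 3. Pdgfra, the growth factor receptor that is highest in subepithelial telocytes, stood at 1223 and 960 CPM against 366 and 263.

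Genes outside the telocyte list also differed between these groups in both libraries. Those given here were taken from the 15 leading genes in each direction of this same split, so their separation follows from that choice. They are no independent check of the groups. Mgp, an inhibitor of calcification and of BMP signals, had 0 UMIs in the telocyte-rich cells of both libraries and 927 and 1225 UMIs in the others. Ccl11 had 0 and 2 UMIs in the telocyte-rich cells against 489 and 831. Eln, which encodes elastin, had 0 and 1 against 144 and 277. Ces1d, a carboxylesterase, had 9 and 6 against 456 and 1011. The telocyte-rich cells held most of the Bmp2, with 119 of 144 UMIs in the THC and 292 of 410 in the vehicle library. They also held most of Plau, the urokinase that activates plasminogen (59 and 120 UMIs against 0 and 6), and of Fst, an antagonist of activins (22 and 103 against 0 and 4). Procr, the receptor of activated protein C, stood at 2076 and 919 CPM in them against 142 and 113. Acta2 stood at 2306 and 926 CPM against 36.9 and 149, and 5 of the 13 THC and 6 of the 18 vehicle telocyte-rich cells held at least 10 UMIs of Acta2 and Tagln together.

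A few single cells carried signals of their own. In each library 1 cell held every UMI of the mesothelial gene Msln (10 in THC and 40 in vehicle) and every UMI of Slpi (66 and 288). The vehicle cell had 27739 UMIs, the most among these fibroblasts, and also held 340 of the 408 UMIs of complement C3 in the vehicle library. Another vehicle cell of 16284 UMIs held all 28 UMIs of the mitotic gene Top2a and 45 of the 62 UMIs of Stmn1. Top2a had 0 UMIs in the THC fibroblasts, which allows up to 5.98 CPM.

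Between the libraries most genes lay close together. Of 31053 genes in the files, 3729 had at least 50 UMIs over both libraries in these cells and were compared by the log2 ratio of CPM, THC over vehicle. Their median was 0.03, with 2018 above 0 and 1711 below. Past 1.5-fold were 10.1% of genes, 190 higher in THC (5.10%) and 185 lower (4.96%). These are the shares against which the counts for gene groups below should be read. Matrix genes differed by group. The 6 fibrillar collagens ranged from -0.14 to 0.13, with Col3a1 at 4146 and 4375 CPM and Col1a1 at 2308 and 2539; both, and Col1a2, were in the sum that chose the cells. Of the 14 other collagens measured, 1 was past 1.5-fold (Col6a4, lower), and of 13 collagen-processing genes none was. Of 10 genes listed as proteoglycans, 2 were past 1.5-fold higher and 1 lower, over a range from -3.19 for Gpc3 to 0.92 for Ogn. The second higher gene was Has1 (55 and 53 UMIs, 0.75), which encodes a hyaluronan synthase and not a proteoglycan. Of its THC UMIs 65.5% came from 1 cell, and without the richest cell of each library its ratio was -0.29.

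Genes higher in the THC cells were led by Procr, with 307 UMIs in THC and 210 in vehicle cells. Its CPM of 612 against 259 gave a log2 ratio of 1.24, with a lower bound of 0.98. In the THC library 253 of the 307 UMIs lay in the telocyte-rich cells, and among the others, with 54 and 75 UMIs, the ratio was 0.33 (-0.20 to 0.86). Cav1, which forms caveolae, had 186 and 174 UMIs and a log2 ratio of 0.79, and moved in the same way: it was 0.18 without the telocyte-rich cells and -0.39 without all cells of 3 or more telocyte UMIs. Smooth muscle genes were also higher in the same THC cells, with Acta2 at 2306 against 926 CPM in the telocyte-rich cells, and their part in these differences was not tested. Nbl1, a BMP antagonist of the DAN family, had 674 and 656 UMIs and a ratio of 0.73 (0.58 to 0.89), which was 0.37 without the telocyte-rich cells. Ogn, a small leucine-rich proteoglycan of the matrix, had 386 and 331 UMIs and a ratio of 0.92 (0.70 to 1.13), which was 0.55 without them.

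Others were higher both with all cells and without the telocyte-rich ones. Adcy5, an adenylate cyclase, was found in 39.7% of THC and 15.6% of vehicle cells, with 33 and 19 UMIs and a log2 ratio of 1.49 (0.63 to 2.39), which was 0.68 without the cells of 3 or more telocyte UMIs. Rasa3, a GTPase-activating protein, was found in 42.9% and 21.1% of cells (1.26, 0.49 to 2.05). Pgf, placental growth factor, a VEGF relative, had 43 and 29 UMIs (1.26, 0.55 to 1.99), with 0 in the telocyte-rich cells of either library. Ccrl2, a receptor that binds chemerin, was found in 50.8% and 27.5% of cells (0.98, 0.50 to 1.47). Tnip1, an inhibitor of NF-kappaB signals, had 38 and 25 UMIs (1.30, 0.53 to 2.09). Of its THC UMIs 39.5% came from 1 cell, and without the richest cells the ratio was 0.77. AY036118, a locus to which ribosomal RNA reads map, had 305 and 275 UMIs and a ratio of 0.84, which was 0.43 when the sum that chose the cells had to reach 4, so 2 THC cells carried much of it.

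**Figure D3:**
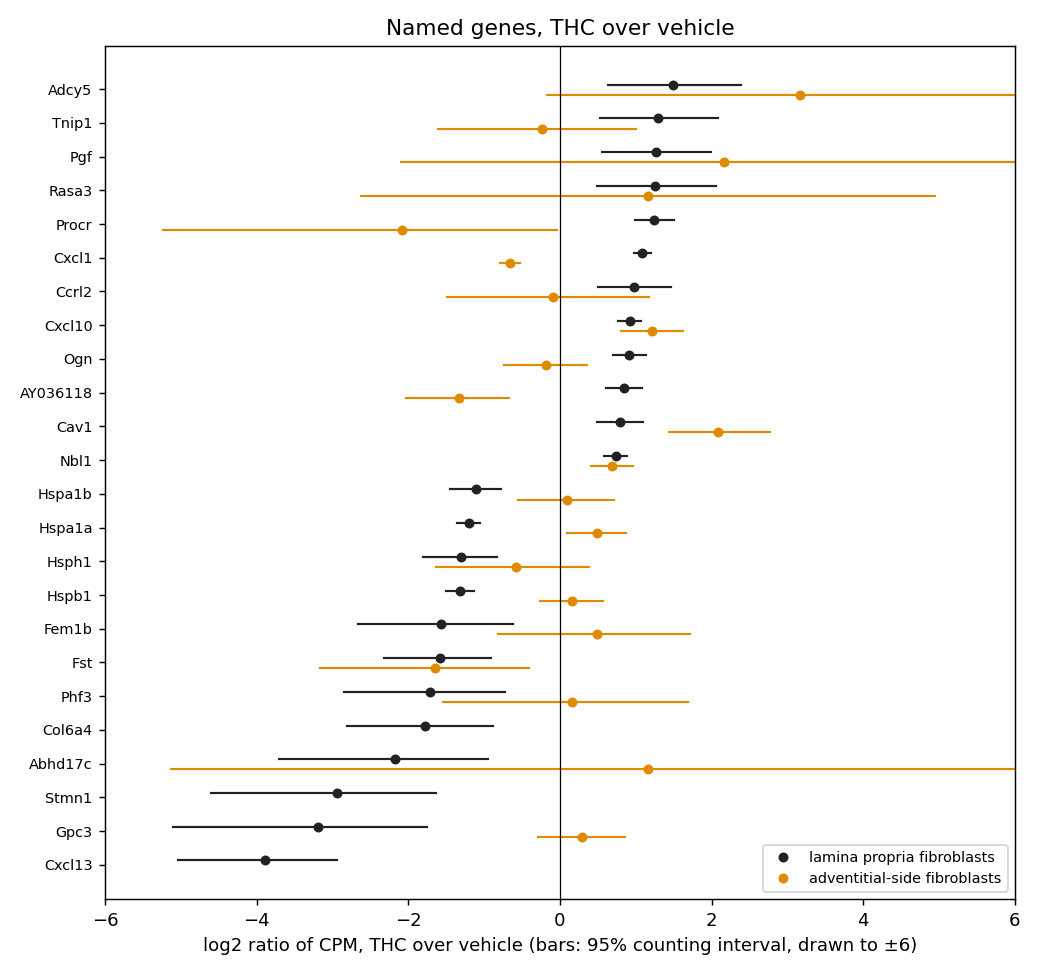
Log2 ratio of CPM, THC over vehicle, for the 12 highest and 12 lowest genes of the lamina propria fibroblasts (black) and for the same genes in adventitial-side fibroblasts (orange); points are ratios, bars exact 95% counting intervals, and a gene at 0 UMIs in a library of the adventitial side has no orange point. Procr, Cxcl1, Hspa1a and Hspb1 lie on opposite sides of 0 in the 2 kinds of fibroblast.

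Chemokines moved in both directions. Cxcl1, the neutrophil attractant, had 1499 UMIs in THC and 1144 in vehicle cells, 2988 against 1409 CPM, a log2 ratio of 1.08 with a lower bound of 0.97, and was found in 57.1% and 43.1% of cells. Cxcl10, the interferon-induced T cell attractant, had 820 and 702 UMIs and a ratio of 0.92 (0.77 to 1.07), but 0.33 without the cells of 3 or more telocyte UMIs. It was found in 41.3% of THC and 44.0% of vehicle cells, the other way from its ratio. Cxcl12 (0.20) and Cxcl16 (0.01) lay close to 0. Cxcl13, the B cell attractant, had 9 UMIs in 5 THC cells and 216 in 18 vehicle cells, a ratio of -3.89 (-5.04 to -2.94); 123 of the 216 came from 1 cell, and without the richest cell of each library the ratio was -3.51. Of 7 CXC chemokines measured, 2 were past 1.5-fold higher and 1 lower, with a median of 0.20. All 4 CC chemokines measured lay below 0, with a median of -0.54. Ccl2 was lower at 177 and 458 UMIs (-0.68, -0.94 to -0.42), as was Ccl7 at 11 and 68 UMIs (-1.93), while Ccl11 was at -0.07. Both Ccl2 and Ccl7 were also lower in the THC cells of the adventitial side, by the CPM given above.

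Feedback genes of NF-kappaB, the transcription factor behind many inflammatory genes, lay mostly above 0: 10 of 13, with a median of 0.21, against 0.03 over all genes. Past 1.5-fold higher were 3, namely Nfkbiz (100 and 100 UMIs, 0.69), Sod2, the mitochondrial superoxide dismutase (119 and 119 UMIs, 0.69), and Relb (31 and 33 UMIs, 0.60), and none was lower. The counting interval of the Relb ratio covers 0. When each cell was thinned to 1000 UMIs, the median of this list turned to -0.15. The adventitial-side median was -0.40, with 3 of 13 above 0. Interferon-stimulated genes had a median of 0.16, with 8 of 10 above 0, and a median of -0.016 when thinned to 1000 UMIs. Among them Iigp1, an interferon-induced GTPase, was past 1.5-fold higher (91 and 97 UMIs, 0.60).

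Heat shock genes were mostly lower in the THC cells. Of 18 measured, 15 lay below 0, 7 were past 1.5-fold lower and 1, the small heat shock gene Hspb8 (0.59), past 1.5-fold higher, with a median of -0.50. Together they made up 1.03% of UMIs in THC and 1.49% in vehicle cells. Hspa1a and Hspa1b encode the inducible cytosolic chaperone Hsp70 from near-identical copies, so how their reads were split is uncertain; together they had 560 and 2067 UMIs, 1116 against 2546 CPM, a log2 ratio of -1.19 (-1.33 to -1.05). Hspb1, a small heat shock protein, had 305 and 1233 UMIs, 608 against 1519 CPM, a ratio of -1.32 (-1.51 to -1.14). It was found in 46.0% and 44.0% of cells. Hsph1, a nucleotide exchange factor of Hsp70, had 46 and 184 UMIs (-1.31, -1.80 to -0.83). Hspe1, the mitochondrial co-chaperonin, had 140 and 394 (-0.80), Hsp90aa1, the inducible Hsp90, 388 and 1017 (-0.70), and Dnajb4, a co-chaperone, 34 and 100 (-0.86). The constitutive chaperones Hspa8 (-0.18) and Hsp90ab1 (-0.05) lay near 0.

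The libraries differed mainly in the upper range of cells. Per cell, the heat shock genes took between 0.197% and 2.50% of UMIs in THC cells (median 0.925%) and between 0.168% and 6.28% in vehicle cells (median 1.22%). The lower quartiles were 0.636% and 0.539%, while 19 of 109 vehicle cells (17.4%) stood above the highest THC cell. The adventitial-side fibroblasts of the same libraries had a median log2 ratio of 0.06 for these genes, with 10 above 0 and 8 below. The genes took 1.16% of UMIs there in THC and 0.941% in vehicle cells. In other cell groups the share was lower in THC, at 0.741% against 0.883% in epithelial and 0.621% against 0.804% in immune cells. It was 1.21% against 1.45% in endothelial and 1.32% against 1.40% in contractile cells. In the lamina propria fibroblasts the list's median log2 ratio was -0.54 without the telocyte-rich cells, and -0.79 within them. Without all cells of 3 or more telocyte UMIs it was -0.25, and Hspb1 then stood at -0.22 and Hspa1a at -1.01. By cell, the order of the libraries depended on the telocyte genes. In cells with 0 to 2 telocyte UMIs, the larger part of each library, the median heat shock share was higher in THC, at 1.01% against 0.902%. With 3 to 9 it was 0.857% in THC and 1.45% in vehicle cells, and with 10 or more 0.773% and 1.30%.

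**Figure D4:**
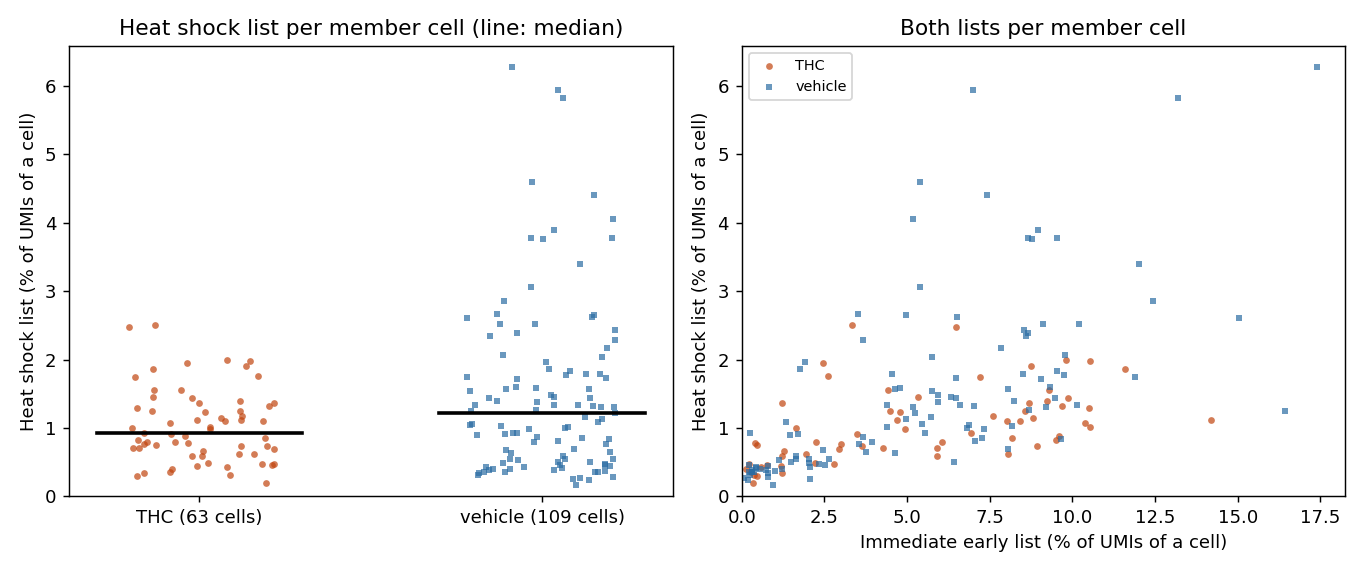
Left: share of each lamina propria fibroblast's UMIs taken by the heat shock list (y axis, percent) in the THC and vehicle libraries, 1 point per cell, with the median as a line at 0.925% and 1.22%. Right: the same share against the share of immediate early genes (x axis, percent); cells high in one list tend to be high in the other, and 19 vehicle cells lie above the highest THC cell.

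The promoters of 3 of the genes that were lower in the THC cells are shown to let a shared motif be seen. It is a short core of the sequence element by which heat shock factor is known to act. The motif searched was GAANNTTC, which reads the same on both strands, in windows from 250 bases before to 50 after each start in a RefSeq promoter table (build GRCm38.p6). Of 19 heat shock genes listed, 14 had an entry and 10 of these held the motif, against 9.04% of all 27025 genes in the table. The list was made of known heat shock genes, so this share describes the list and says nothing about THC. Printed are the last 160 bases before the start, 5′ to 3′, with the motif in capitals. Hspa1a lies at chr17:34972157-34972316 on the minus strand, Hspb1 at chr5:135887759-135887918 on the plus strand and Hspe1 at chr1:55087988-55088147 on the plus strand.
Hspa1a: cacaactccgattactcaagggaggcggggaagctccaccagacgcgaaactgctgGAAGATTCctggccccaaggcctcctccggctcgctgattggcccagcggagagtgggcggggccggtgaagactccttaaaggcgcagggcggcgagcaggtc
Hspb1: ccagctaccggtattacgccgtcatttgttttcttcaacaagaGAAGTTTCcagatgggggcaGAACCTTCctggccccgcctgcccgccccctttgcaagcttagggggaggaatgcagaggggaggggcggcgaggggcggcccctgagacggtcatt
Hspe1: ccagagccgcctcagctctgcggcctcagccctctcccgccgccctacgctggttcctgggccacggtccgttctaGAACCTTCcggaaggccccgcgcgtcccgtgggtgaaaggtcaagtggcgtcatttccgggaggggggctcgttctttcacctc
The match begins 104 bases before the start in Hspa1a, 117 and 97 bases before it in Hspb1, which holds 2, and 84 bases before it in Hspe1. Dnajb1 and Dnajb4 held no match in their windows, and Hspb8, which was higher in the THC cells, held 1. A match describes these letters and is not evidence of binding.

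Immediate early genes are switched on within minutes of a stimulus. Their median log2 ratio was -0.04, with 13 of 31 above 0. Fos, at 7253 and 6287 CPM (0.21), Jun (0.03) and Egr1 (0.25) lay near 0, and the 3 past 1.5-fold lower were Fosl2 (38 and 113 UMIs, -0.88) and the orphan nuclear receptors Nr4a2 (-0.75) and Nr4a3 (-0.81). Across cells, the shares of both lists went together with a Spearman correlation of 0.64 over 63 THC cells and 0.74 over 109 vehicle cells. The cells of each correlation share a library and their total UMIs, and no p is given. Genes of endoplasmic reticulum protein folding had a median of -0.15, with 3 of 18 past 1.5-fold lower, Sdf2l1 (18 and 68 UMIs, -1.22), the stress transcription factor Ddit3 (60 and 165, -0.77) and Creld2 (37 and 90, -0.59), while Calr and Canx stood at 0.00 and 0.01. Without the cells of 3 or more telocyte UMIs this median was 0.09.

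Niche ligands lay on both sides of 0. Of 6 BMP ligands measured, Bmp4 (0.23), Bmp5 (0.33), Bmp6 (0.28) and Bmp1 (-0.07) stayed within 1.5-fold. Bmp2 was lower in the THC cells at 144 and 410 UMIs (-0.82, -1.10 to -0.54), and was so both within the telocyte-rich cells (-1.03) and outside them (-1.43). Bmp7, a gene of the telocyte list, was higher at 59 and 55 UMIs (0.80, 0.24 to 1.35). Among Wnt ligands, Wnt4 (-0.18) and Wnt2b (0.19) stayed close. Wnt5a, a non-canonical ligand of the telocyte list, was higher at 42 and 33 UMIs (1.04, 0.35 to 1.75). The telocyte-rich cells made up 20.6% of THC and 16.5% of vehicle cells, and their part in the Bmp7 and Wnt5a ratios was not tested. Fst was lower at 22 UMIs in 4 THC cells against 107 in 13 vehicle cells (-1.59, -2.32 to -0.92), and 72.7% of the THC UMIs came from 1 cell; without the richest cell of each library the ratio was -3.11. Sfrp2, a Wnt inhibitor, had 4 and 46 UMIs (-2.83), in 4.8% and 7.3% of cells. Among epidermal growth factor family ligands, Ereg was at 279 and 361 UMIs (0.32), Nrg1 at 44 and 116 (-0.70) and Hbegf at 9 and 43 (-1.56), the last in 4.8% and 13.8% of cells. Col6a4, a collagen of the beaded-filament family, had 12 and 67 UMIs (-1.79), of which 11 and 60 lay in the telocyte-rich cells.

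Receptors for growth factors were above 0 in 10 of 12 cases, with a median of 0.31 and 3 past 1.5-fold higher, the PDGF receptor Pdgfrb (58 and 58 UMIs, 0.69), Fgfr2 (134 and 136, 0.67) and the BMP receptor Bmpr1a (43 and 45, 0.63). Cytokine receptors divided: Il4ra (59 and 63 UMIs, 0.60) and Il11ra1 (32 and 31, 0.74) were higher, while Il1r1 (19 and 55, -0.84), Tnfrsf11b (13 and 38, -0.85) and Il1rl1 were lower. For Bmpr1a and Il11ra1 the lower bound of the counting interval lies near 0. Il1rl1 had 6 UMIs in 3 THC cells and 99 in 9 vehicle cells (-3.35, -4.83 to -2.18), and 98 of the 99 lay in the telocyte-rich cells. In each library 1 cell held most of its UMIs, 66.7% in THC and 60.6% in vehicle. Without the richest cell of each library the ratio was -3.58. 6 sterol and lipid synthesis genes passed 50 UMIs and all 6 lay above 0, with a median of 0.42. Sc5d, a desaturase of cholesterol synthesis (32 and 33 UMIs, 0.65), and Scd2, a fatty acid desaturase (41 and 41, 0.69), were past 1.5-fold. The counting interval of the Sc5d ratio covers 0. Prostaglandin genes lay below 0 in 6 of 8 cases, with none past 1.5-fold and Ptgs2, the inducible cyclooxygenase, at 564 against 817 CPM (-0.53, -0.74 to -0.33). Mesenchymal transcription factors lay below 0 in 10 of 12 cases, with Osr1 (-0.72) and Tbx3 (-0.87) past 1.5-fold. Complement C3 had 65 and 408 UMIs (-1.96), and -0.17 without the richest cell of each library.

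The cannabinoid receptors Cnr1 and Cnr2, through which THC mainly acts, were not detected in these cells. Cnr1, Cnr2, Gpr55 and Trpv1 had 0 UMIs in both libraries, which allows up to 5.98 CPM in the THC and 3.70 CPM in the vehicle cells. They were the only 4 of 19 listed endocannabinoid system genes at 0 in both. The others, among them Trpv2 and Pparg, held UMIs in these cells. Of enzymes that break down endocannabinoids and related lipids, Mgll (monoacylglycerol lipase) had 47 and 65 UMIs (0.23, -0.35 to 0.79), and Naaa, a lysosomal amidase, was higher at 38 and 34 UMIs (0.85, 0.15 to 1.57). Faah had 0 and 1 UMIs.

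**Figure D5:**
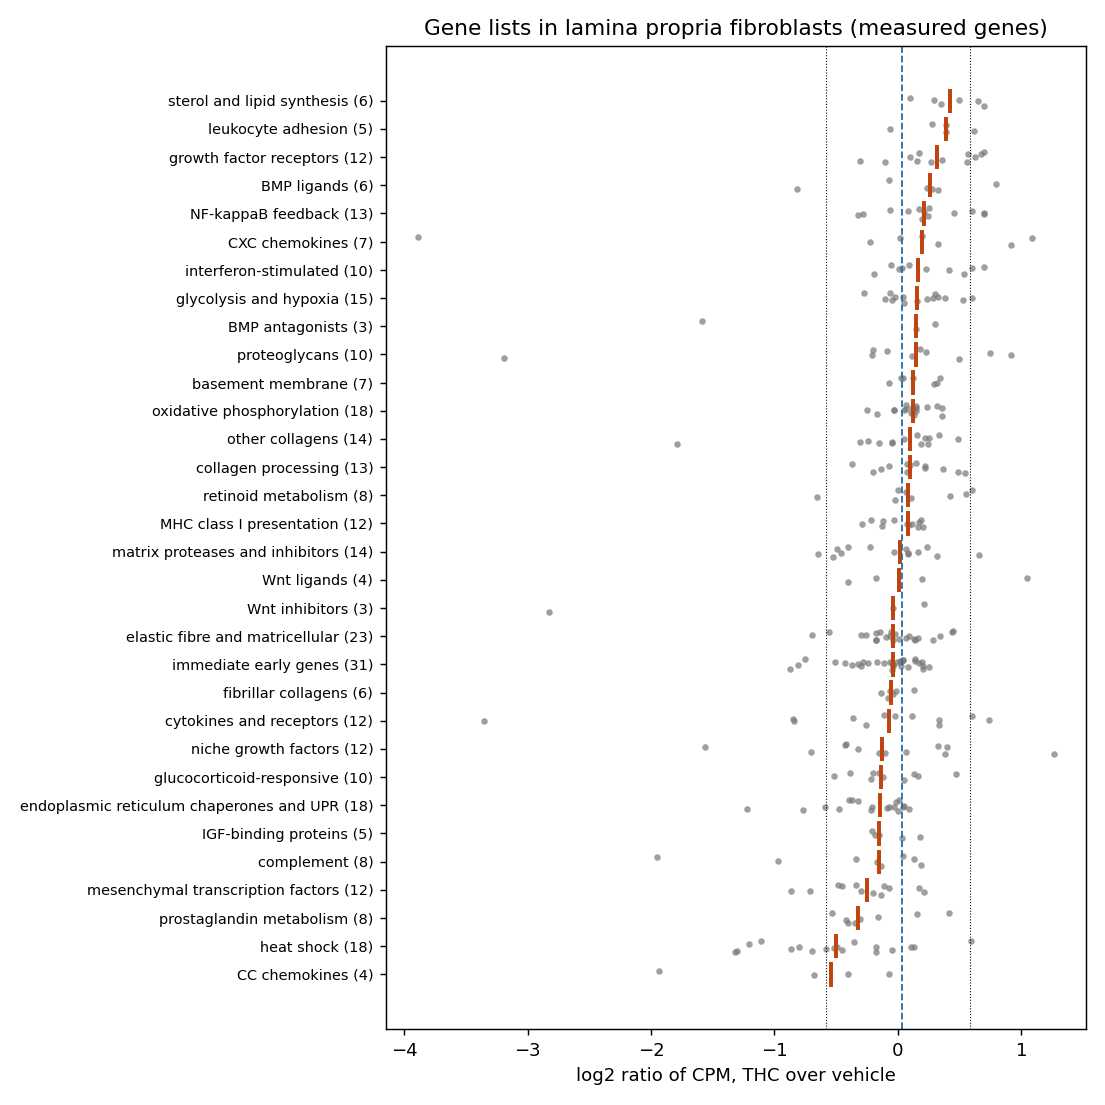
Log2 ratio of CPM, THC over vehicle, for every measured gene (grey points) of each gene list with at least 3 measured genes (number in brackets), with the list's median in red, the median of all measured genes (0.03) as a dashed line and 1.5-fold in either direction as dotted lines. CC chemokines and heat shock genes have the lowest medians, at -0.54 and -0.50, and sterol and lipid synthesis genes the highest, at 0.42.

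Abhd17c, Fem1b, Gpc3, Phf3 and Stmn1 were also among the lowest in the THC cells. Gpc3, a cell-surface proteoglycan, had 4 and 59 UMIs (-3.19), of which 36 of the 59 came from 1 vehicle cell, and -2.23 without the richest cell of each library. Stmn1 had 5 and 62 UMIs (-2.94), mostly from the vehicle cell rich in Top2a, and turned to 1.27 without the cells of 3 or more telocyte UMIs. Abhd17c, a depalmitoylating enzyme, had 6 and 44 UMIs (-2.18, -3.70 to -0.94), and -1.12 without the cells of 3 or more telocyte UMIs. Phf3, a regulator of transcription, had 10 and 53 UMIs (-1.71, -2.85 to -0.72) and Fem1b, a subunit that directs ubiquitin ligases, 11 and 53 (-1.57, -2.66 to -0.62), each found in a larger share of vehicle than of THC cells.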

How the data were processed

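RNA of dissociated colon cells was counted with the 10x Genomics 5' kit in 1 THC and 1 vehicle library. Per the file headers, the authors deposited UMI counts per gene and barcode made with Cell Ranger 3.0.2. Seurat and bcl2fastq are listed, with no version, in the submitters' processing notes. No source used here gives the genome build or annotation. The THC matrix holds every barcode and the vehicle matrix selected ones, so cells were chosen again with the same limits in both.

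UMIs were summed over the chosen cells of each library and divided by their total to give CPM (UMIs per 1000000). A gene needed 50 UMIs over both libraries and was called past 1.5-fold. Intervals are exact conditional Poisson (ratios) and exact binomial (Clopper-Pearson, shares) at 95%, and cover counting error only. The tag sits at the 5' end of the RNA, so a UMI counts a molecule whatever its length. The intervals and the call were tested on counts simulated from the same Poisson model. The simulation did not include UMIs gathered in single cells, so it does not test the intervals for that. With 1 library per group, replicates do not exist, and no paired analysis was possible.

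Named genes were the 12 highest and 12 lowest by the interval bound nearest 0, among genes found in at least 10% of cells of 1 library, with a CPM of at least 20% of that of the highest cell group, and past 1.5-fold also without the richest cell of each library; sex-linked, mitochondrial, ribosomal protein, globin and antigen receptor genes and the genes used to choose the cells were left out. Genes against the adventitial side were the 10 highest and 10 lowest by the smaller ratio of both libraries. Genes of the lists were named too; 1 gene is not reported here. The cells and the gene lists were chosen with earlier results of these data known. Adventitial-side fibroblasts passed the same gate with at least 2 UMIs of Pi16, Col14a1, Pcolce2 and Scara5 together and more of these than of the other sum. Ccn1 and Ccn2 were read as Cyr61 and Ctgf. Doublets were sought with scrublet (scanpy 1.11.5) at 0.8% per 1000 cells and were not removed; the caller marked few cells. 12 alternatives were planned and 2 were added after the data were seen, leaving out cells with 10 or more telocyte UMIs and the vehicle cell with the most UMIs. scipy 1.17.1, numpy 2.4.6 and pandas 2.3.3 were used.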

Additional observations from a re-analysis of the deposited data

Results flagged for a closer look

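Of the 24 named genes, 21 had a log2 ratio of THC over vehicle on the adventitial side too, and for 13 of them its sign was opposite to that in the lamina propria fibroblasts of the same libraries. The counting intervals of both ratios overlapped for 5 of the 13 (Tnip1, Ccrl2, Abhd17c, Phf3 and Fem1b) and lay apart for the 8 described here. With 1 library per group the difference was not tested, and the adventitial side held 24 and 43 cells. The ratio in lamina propria fibroblasts minus that in adventitial-side fibroblasts was 3.33 for Procr, which had 2 and 19 UMIs on the adventitial side, 2.17 for AY036118, 1.74 for Cxcl1 and 1.10 for Ogn, all higher in the THC lamina propria fibroblasts. It was -3.48 for Gpc3, -1.69 for Hspa1a, -1.48 for Hspb1 and -1.21 for Hspa1b, all lower in them. For Ogn, Gpc3, Hspb1 and Hspa1b the interval of the adventitial-side ratio covered 0. On the adventitial side Cxcl1 had 630 UMIs in THC and 2221 in vehicle cells, and Hspa1a had 91 and 145. Hspa1a was also lower in THC epithelial (164 and 352 CPM), immune (258 and 617), contractile (521 and 835) and endothelial cells (904 and 1232).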

How the results depend on the processing

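Each value was recomputed under 12 alternatives and 2 added after the data were seen; the cause of the shifts below was not tested unless the setting itself gives it. The share of lamina propria fibroblasts was 23.4% in THC and 27.3% in vehicle under a 5% mitochondrial limit, which removes other cell types from the total. The counts of genes past 1.5-fold higher and lower were 28 and 29 with cells thinned to 1000 UMIs, 674 and 749 from 20 UMIs, and 113 and 117 without cells of 3 or more telocyte UMIs; the first and last settings measure fewer UMIs and the second more genes. The heat shock median stayed below 0 in all 14, at -0.66 thinned and -0.25 without cells of 3 or more telocyte UMIs. The median of immediate early genes changed sign, to 0.0088 under the 5% limit, 0.070 without cells of 3 or more telocyte UMIs and 0.010 without those of 10 or more. Signs of list medians also changed on thinning for BMP antagonists (0.15 to -0.95), proteoglycans (-0.093), CXC chemokines (-0.060), NF-kappaB feedback (-0.15), interferon-stimulated genes (-0.016) and oxidative phosphorylation (-0.042); for proteoglycans without the richest cell (-0.0052); without cells of 3 or more telocyte UMIs for BMP ligands (-0.15), other collagens (-0.039), matrix proteases and inhibitors (-0.25), proteoglycans (-0.033), protein folding of the endoplasmic reticulum (0.089), Cav1 (-0.39) and Stmn1 (1.27); and without those of 10 or more for IGF-binding proteins (0.095); and without the vehicle cell with the most UMIs for complement (0.089). Medians of Wnt ligands, Wnt inhibitors, elastic fibre genes, matrix proteases, MHC class I genes and niche growth factors crossed 0 under other settings too. No counting error was computed for a list median. Without cells of 3 or more telocyte UMIs, Hsph1 stood at -0.59, Tnip1 at 2.27, Pgf at 1.85, Fem1b at -2.64 and Cxcl13 at -6.61. TMM scaling shifted all ratios by 0.027. No library could be left out, and no paired analysis was possible because each group has 1 library.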
